A study of Homo sapiens with 12 samples.

Results

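Doxycycline itself, without a transgene to induce, was the variable in 6 of the 12 libraries of this series. HL60 is a human promyelocytic leukaemia line. In the empty vector line (EV, transduced with pRRL-EV-puro), 3 libraries came from cells given doxycycline at 1 µg/ml for 48 hours and 3 from cells given vehicle. In the TFEB line (pRRL-TFEBS211A-puro), doxycycline also switches on the S211A form of the transcription factor TFEB, and it too has 3 libraries with doxycycline and 3 with vehicle. All cells were puromycin-vector transductants grown in RPMI-1640 with serum, and the design text calls the triplicates biologically independent. Groups follow each sample's treatment label, since the protocol text of all 12 samples, vehicle included, names doxycycline. TFEB, the induced gene, bears on this in the TFEB line only, where it read 115.7 to 168.1 with vehicle. The EV comparison covers the 23128 of 57820 listed genes that had a mean of at least 10 over the 12 libraries, and the members are the 6 EV libraries.

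Doxycycline is a tetracycline antibiotic and is used in cell biology to switch on engineered promoters. It also binds bacterial and mitochondrial ribosomes, and tetracyclines inhibit matrix metalloproteinases. Promyelocytes such as HL60 make large amounts of azurophil granule proteins, proliferate under high MYC, and lower both as they mature towards granulocytes or monocytes.

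TFEB was high only in the libraries labelled as the TFEB line with doxycycline. On a scale set by expressed genes (described next), TFEB read 107.6, 88.8 and 110.8 in EV vehicle and 140.2, 131.2 and 255.2 in EV doxycycline, against 10660 to 13610 in the TFEB line with doxycycline. The EV line carries no induced gene by which its vehicle and doxycycline labels could be checked. TFEB in the EV line was higher by 0.71 on the log2 scale there (adjusted p = 0.0215 by limma) but lower by an uncalled 0.57 on the deposited scale. The call on the expressed-gene scale was lost without vehicle 2 or doxycycline 3. The promyelocyte markers MPO, ELANE, PRTN3, AZU1, CTSG, CEBPE, MYB, SPI1 and CD33 were present in all 6 EV libraries, and CD33, a myeloid surface antigen, did not pass the test (log2 change 0.07, adjusted p = 0.636).

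The libraries differed in depth and in how their reads were spread. EV libraries are named by treatment and replicate number, as vehicle 2 or doxycycline 3. Whole reads recovered from the deposited values ran from 10709170 to 22488047 in EV vehicle and from 4474007 to 11681639 in EV doxycycline. Nuclear genes with a mean under 200 took 6.19% ± 1.52 of the reads with vehicle and 12.5% ± 5.08 with doxycycline (mean ± SD, n = 3 each), and the highest share, 18.2%, was in the shallowest library, doxycycline 3. Mitochondrially encoded genes took 23.8% ± 2.75 and 30.4% ± 3.67. On the deposited scale the median low gene changed by 0.25 and the median expressed gene by -1.29 (log2). Deposited totals were 13330386, 22302095 and 10372464 with vehicle and 9918342, 7361664 and 4012762 with doxycycline. Changes on that scale therefore include these differences in total. With equal library totals the median expressed gene was at -0.16. A second scale equalised the median ratio over the 7290 nuclear genes whose mean reached 200, the expressed genes. On it the median change of expressed genes was 0.00 (log2) and that of the low genes was 1.48. The mean that defines an expressed gene covers all 12 libraries. A gene that is low in EV vehicle can therefore count as expressed through high values in the doxycycline libraries of either line, as TFEB does. A fall is named below where it was called by limma (adjusted p under 0.05 over all 23128 genes) on the expressed-gene scale, and every such fall was also called on the deposited scale. Falls were favoured on the deposited scale, where the median expressed gene was at -1.29, so its agreement is not a separate check on a fall. Few rises were called on both scales, so the scale is named with each rise.

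**Figure D1:**
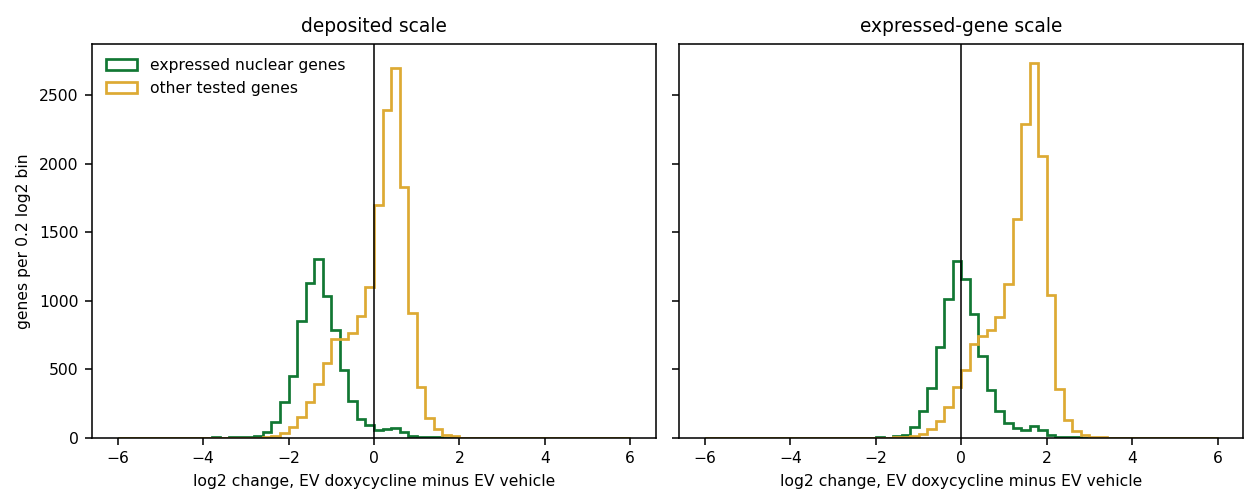
Number of genes (y axis, per bin) by log2 change from EV vehicle to EV doxycycline (x axis) on the deposited scale (left) and the expressed-gene scale (right), for expressed nuclear genes and all other tested genes. The median expressed gene is at -1.29 on the left and near 0 on the right, and the low genes lie to the right of the expressed genes on both.

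Among the 7290 expressed genes, 1274 (17.5%) were lower and 1521 (20.9%) were higher with doxycycline on the expressed-gene scale. On both scales the counts were 1274 lower (17.5%) and 27 higher (0.37%). Among the 15810 low nuclear genes, 756 (4.78%) rose and 56 (0.354%) fell on both scales. Over all tested genes, 783 (3.39%) rose and 5396 (23.3%) fell on the deposited scale (51.2% of expressed genes fell there), and 783 (3.39%) rose and 1330 (5.75%) fell on both. The deposited counts carry the differences in library total given above. These counts moved when single libraries were left out. Without vehicle 2, the deepest of the 6, 509 expressed genes were lower and 619 higher on the expressed-gene scale, and 150 genes fell and 73 rose on both. Without doxycycline 3 the expressed-gene counts were 788 and 970, and 667 fell and 199 rose on both. Of the other EV libraries, leaving out vehicle 1 gave 876 falls on both, vehicle 3 gave 1635 rises on both, and doxycycline 2 gave 240 rises on both. On the deposited scale 8149 genes fell without doxycycline 1, 1530 without doxycycline 3 and 377 without vehicle 2. The gene groups below differed in how far they shared this dependence.

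MYC, the growth-promoting transcription factor, fell in the EV line. It read 17250, 21770 and 24500 in the vehicle libraries and 4502, 5676 and 5890 in the doxycycline libraries on the expressed-gene scale. All 3 doxycycline values lay below all 3 vehicle values, and the uninduced TFEB line (14830, 20240 and 25250) lay with the EV vehicle libraries. The change was -1.98 ± 0.23 (log2 ± SE, adjusted p = 7.58e-05 by limma). On the deposited scale it was -3.27, beside -1.29 for the median expressed gene. Of the 34 expressed genes in a list of MYC targets and ribosome biogenesis factors, 30 fell and 0 rose (88.2% against 17.5% of all expressed genes), with a median of -0.87. The count was 26 to 30 whichever library was left out, but without vehicle 2 only 10 of the 33 tested members that fell on both scales still did. Under each of 7 scalings, including TMM and equal library totals, 28 of the 34 fell, against 9.26% of all expressed genes. All 1274 expressed falls were kept under TMM, equal library totals and equal upper quartiles, where the median expressed gene was at -0.68, -0.16 and -0.24. With the scale set by genes with a mean of at least 1000, 676 were kept. Counts of falls under each of 7 scalings rest mainly on that scaling.

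SRM, which makes the polyamine spermidine, read 3318, 3766 and 2811 with vehicle and 1093, 1213 and 811.5 with doxycycline. Its values did not overlap, and its change was -1.68 ± 0.17 (adjusted p = 3.14e-05). NOLC1, a nucleolar chaperone of ribosome assembly, fell from 3338 to 3843 over the vehicle libraries to 1523 to 1627 (-1.22, adjusted p = 3.14e-05). NCL, the nucleolar protein nucleolin, fell by 1.17, and PAICS, an enzyme of purine synthesis, fell by 1.20. TFRC, the transferrin receptor through which cells import iron, fell by 1.09, and LDHA, lactate dehydrogenase, fell by 0.95. The members that did not pass included EIF4E, the cap-binding translation factor, at -0.02. Of 73 cytosolic ribosomal protein genes, the structural parts of the finished ribosome, 3 fell (4.11%, beside 17.5% of all expressed genes), with a median of -0.27. That count was 27 without doxycycline 1, 0 without vehicle 1, vehicle 2 or doxycycline 3, and 1 without doxycycline 2, TFEB vehicle 2, or TFEB doxycycline 2 or 3. It was 17 with no filter on low values, 14 with the replicate block, 11 by DESeq2 and 0 by edgeR on recovered reads.

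Promoter windows of 3 list members that fell are shown because each holds the E-box letters CACGTG that MYC with its partner MAX can bind. They are the 250 bases before the start site, 5′ to 3′ on the gene's strand, from RefSeq on GRCh38.p14, with the E-box in capitals.
SRM (chr1:11060019-11060268, minus strand): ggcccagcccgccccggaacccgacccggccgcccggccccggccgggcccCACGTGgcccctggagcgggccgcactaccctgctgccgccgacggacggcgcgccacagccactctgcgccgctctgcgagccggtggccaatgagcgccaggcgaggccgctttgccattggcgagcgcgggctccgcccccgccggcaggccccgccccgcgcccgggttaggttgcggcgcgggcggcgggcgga
LDHA (chr11:18394313-18394562, plus strand): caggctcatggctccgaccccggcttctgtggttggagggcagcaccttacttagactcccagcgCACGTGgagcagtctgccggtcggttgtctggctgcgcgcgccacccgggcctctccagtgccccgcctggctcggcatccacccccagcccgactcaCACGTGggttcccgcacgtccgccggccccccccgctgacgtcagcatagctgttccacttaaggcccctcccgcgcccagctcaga
PPAT (chr4:56435616-56435865, minus strand): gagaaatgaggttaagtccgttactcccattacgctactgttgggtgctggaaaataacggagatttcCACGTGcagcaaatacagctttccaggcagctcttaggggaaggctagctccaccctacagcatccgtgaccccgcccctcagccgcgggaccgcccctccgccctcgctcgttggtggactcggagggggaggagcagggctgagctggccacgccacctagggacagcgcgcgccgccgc
PPAT, the first enzyme of purine synthesis, fell by 0.87. The E-box was found in 11 of the 30 list members with a window of 300 bases (36.7%, 250 bases before to 50 after the start) and in 7.43% of 27305 such windows. Among the members called lower, 9 of 26 held it. The E-box was searched on both strands, though its letters read the same on each, and was chosen after the values were seen.

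Azurophil granule genes, the products of the promyelocyte stage, fell as a group. Of 11 expressed members, 9 fell and 0 rose (81.8% against 17.5%), with a median of -1.43, and the same number fell under each of 7 scalings. The count was 9 or 10 whichever library was left out. PRTN3, the serine protease proteinase 3, read 3246, 4671 and 3024 with vehicle and 691.8, 941.9 and 424.4 with doxycycline. No value overlapped, and the change was -2.46 ± 0.25 (adjusted p = 3.15e-05). MPO, the myeloperoxidase that makes hypochlorous acid, read 72120, 84740 and 55920 against 27460, 24030 and 12130, a change of -1.81 ± 0.29 (adjusted p = 0.000878). doxycycline 3 was the lowest for both. LYZ, lysozyme, fell as well (-1.74), as did ELANE, neutrophil elastase (-1.58), AZU1, azurocidin (-1.10), and CTSG, cathepsin G (-1.06). The 2 expressed members that did not pass were RNASE2, an eosinophil-type ribonuclease, at -0.14 and SERPINB1, an inhibitor of granule proteases, at -0.28.

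Progenitor regulators were mixed. MYB, a transcription factor of immature myeloid cells, read 5172, 5101 and 4950 with vehicle and 2061, 1835 and 1801 with doxycycline. The replicates were tight and did not overlap (-1.42 ± 0.12, adjusted p = 3.55e-06), and MYB fell under each of 7 scalings. Of the 7 expressed progenitor genes, 6 fell (17.5% of all expressed genes did) and MSI2, an RNA-binding protein of stem cells, rose by 0.72 on the expressed-gene scale only. The 6 became 2 without vehicle 2 and 3 without vehicle 1 or doxycycline 2, and 2 of the 7 fell under each scaling, MYB and GATA2. GATA2, a stem-cell transcription factor, fell by 0.70 (adjusted p = 0.00665). Of the 9 progenitor genes under the expressed minimum, 8 were higher on the expressed-gene scale, among them the receptor KIT (1.87) and the homeobox genes HOXA9 (2.22) and HOXA10 (2.18), beside the low-gene median of 1.48. The stem-cell antigen CD34 was another of the 8, with an uncalled 0.76 on the deposited scale. Of the 8, HOXA10 was the one called on both scales (0.99 on the deposited scale), a call lost in 8 of the 12 leave-outs. Of 14 expressed myeloid transcription factors, 5 fell and 5 rose (17.5% and 20.9% of all expressed genes did). Among them SPI1, which encodes PU.1, was at -0.30 (adjusted p = 0.0402), a call lost without vehicle 1 or 2, doxycycline 2 or 3, or TFEB vehicle 2. The 5 falls became 0 without vehicle 2 or doxycycline 3, 2 without vehicle 1 or doxycycline 2, and 3 without vehicle 3 or TFEB vehicle 2. The 5 rises became 2 without vehicle 2 and 3 without doxycycline 2.

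**Figure D2:**
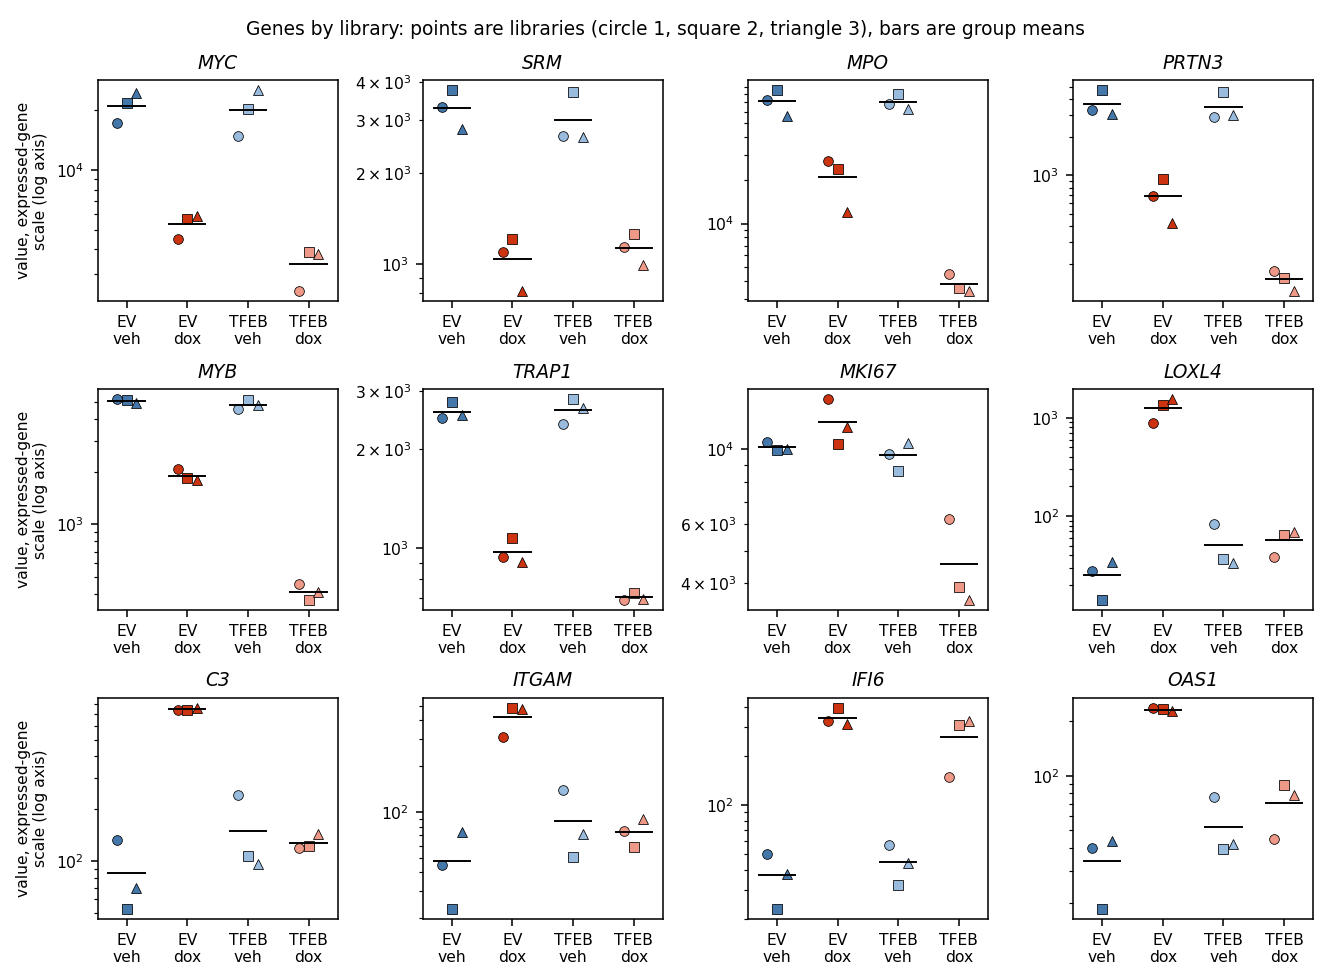
Values of 12 genes on the expressed-gene scale (log y axis) in the 12 libraries by group (x axis: EV or TFEB line, vehicle or doxycycline); points are libraries and bars are means of 3. In the EV line MYC, SRM, MPO, PRTN3, MYB and TRAP1 are lower with doxycycline in 3 of 3 libraries, MKI67 overlaps, and LOXL4, C3, ITGAM, IFI6 and OAS1 are higher in 3 of 3.

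The 13 mRNAs encoded in mitochondrial DNA, the templates of the ribosome that doxycycline binds, held no gene called lower on the expressed-gene scale. MT-ND6, a complex I subunit read from the light strand, read 7540, 7164 and 9289 with vehicle and 8914, 13950 and 30580 with doxycycline, and the groups overlapped (0.97 ± 0.33, adjusted p = 0.0279). MT-ATP8, a subunit of ATP synthase, read 19190, 10670 and 10080 against 23050, 22980 and 24720, all higher (0.89 ± 0.23, adjusted p = 0.0148). These 2 of 13 rose (15.4% against 20.9% of expressed genes) and the median was 0.51, but on the deposited scale the median was -0.78 and 0 of 13 were called by limma (1 at an unadjusted p under 0.05). The 2 became 0 without vehicle 2 and 1 without vehicle 1 or doxycycline 3. With no filter on low values 11 of the 13 were called higher on the expressed-gene scale, and 8 were by DESeq2 on recovered reads. The count was 5 with the scale set at a mean of 1000, 4 with equal totals of expressed genes and 0 with the 6 EV libraries alone. MT-CO1, the catalytic subunit of cytochrome oxidase, read 470500, 362900 and 422100 against 387600, 561200 and 417000, which overlapped.

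Most of the expressed nuclear genes that keep mitochondrial proteins made, imported and folded fell. Of 22 expressed genes for mitochondrial translation, transcription and import, 17 fell and 1 rose (77.3% against 17.5%). Of 19 mitochondrial chaperones and proteases, 13 fell and 0 rose. TRAP1, the mitochondrial HSP90, read 2484, 2773 and 2536 with vehicle and 936.5, 1067 and 903.2 with doxycycline. It fell in all 3 libraries beyond the vehicle range (-1.42 ± 0.11, adjusted p = 2.98e-06), and under each of 7 scalings. TUFM, the mitochondrial elongation factor Tu, fell by 1.05 and LRPPRC, which stabilises mitochondrial mRNAs, fell by 1.05. TOMM40, the import channel of the outer membrane, fell by 1.11. The protease LONP1 (-1.09) and the import and folding chaperone HSPA9 (-1.04) fell. The chaperonin HSPD1 fell from 2709, 3012 and 3936 to 1444, 1423 and 1973. TFAM, which packages and transcribes mitochondrial DNA, was at -0.50 (adjusted p = 0.0157), and its call was lost without vehicle 2.

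Structural parts of the machinery also held falls, beside 17.5% of all expressed genes. Of 53 expressed mitochondrial ribosomal protein genes, 22 fell (41.5%), among them MRPS2 (-1.13) and MRPL4 (-1.12). Of 44 nuclear respiratory chain genes, 12 fell (27.3%), among them ATP5D of ATP synthase (-1.20) and CYCS, cytochrome c (-0.78). The citric acid cycle had 7 of 20 lower, including FH, fumarase, at -0.76, and 2 higher. Without vehicle 2 there were 8 falls in translation and import, 8 in chaperones, 7 in the ribosomal proteins, 5 in the respiratory chain and 4 in the cycle. Without doxycycline 3 the respiratory chain had 6. On both scales the counts without vehicle 2 were 0, 1, 4, 0 and 1. Under each of 7 scalings 9, 10, 11, 7 and 4 fell in these 5 lists, or 40.9%, 52.6%, 20.8%, 15.9% and 20% of their expressed members against 9.26% of all expressed genes.

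The stress programme that mitochondrial damage is known to call on, the integrated stress response through ATF4, held more falls than rises in the EV line. Of 30 expressed genes in that list, 18 fell and 3 rose (60% against 17.5%), and 13 to 22 fell whichever library was left out, though on both scales 3 did without vehicle 2 and 11 without doxycycline 3. TRIB3, a pseudokinase and ATF4 target, read 978.7, 856.9 and 598.6 with vehicle and 475.3, 375.2 and 172 with doxycycline, without overlap (-1.34 ± 0.29, adjusted p = 0.00551). DDIT3, the factor CHOP, read 343.2, 274.6 and 364.4 against 219.3, 160 and 137.6 (-0.94 ± 0.17, adjusted p = 0.00201). ATF4 mRNA itself was at -0.49 (adjusted p = 0.0249), a call lost without vehicle 1 or 2 or doxycycline 2 or 3. SLC7A5, a leucine transporter, fell by 1.28. The 3 members that rose on the expressed-gene scale were GDF15, a stress-secreted cytokine (1.85), NUPR1, a stress-induced chromatin protein (1.63), and PPP1R15A, which restores translation (0.51), and none was called on the deposited scale. With vehicle 2 left out, there was 1. Under each of 7 scalings 13 of the 30 fell (43.3%). The composite ATF4-CHOP letters TGATGNAA, on either strand, were in 7 of the 24 list members with a promoter window (29.2%) and in 3.67% of all windows. Of the 12 of those members that were called lower, 4 held the letters.

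Lists of amino acid, folding and lipid genes also held more falls than rises, where 17.5% of all expressed genes fell and 20.9% rose. Of 15 expressed genes of serine, glycine and one-carbon metabolism, 10 fell, including PSAT1, which makes serine (-1.06), and MTHFD2, the mitochondrial folate dehydrogenase (-0.98). Of 19 genes of the unfolded protein response of the endoplasmic reticulum, 14 fell, including the chaperones CALR, calreticulin (-1.16), and HSPA5, BiP (-1.01). Of 18 cytosolic heat shock genes, 9 fell, including HSP90AB1 (-1.20), and 2 rose. Of 18 cholesterol synthesis genes, 10 fell, including HMGCS1, the synthase before HMG-CoA reductase (-0.80), and 1 rose. Glycolysis had 10 of 22 lower and 2 higher. Without vehicle 2 these counts of falls were 5, 9, 5, 4 and 5 in the order given, and on both scales they were 1, 0, 1, 0 and 0. They were 6 for one-carbon genes without vehicle 1 or doxycycline 3, and 6 for glycolysis without the latter. Cholesterol genes gave 6 and 5 falls without doxycycline 2 and 3. Under each of 7 scalings 8, 10, 8, 7 and 6 fell, as did 9.26% of all expressed genes.

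**Figure D3:**
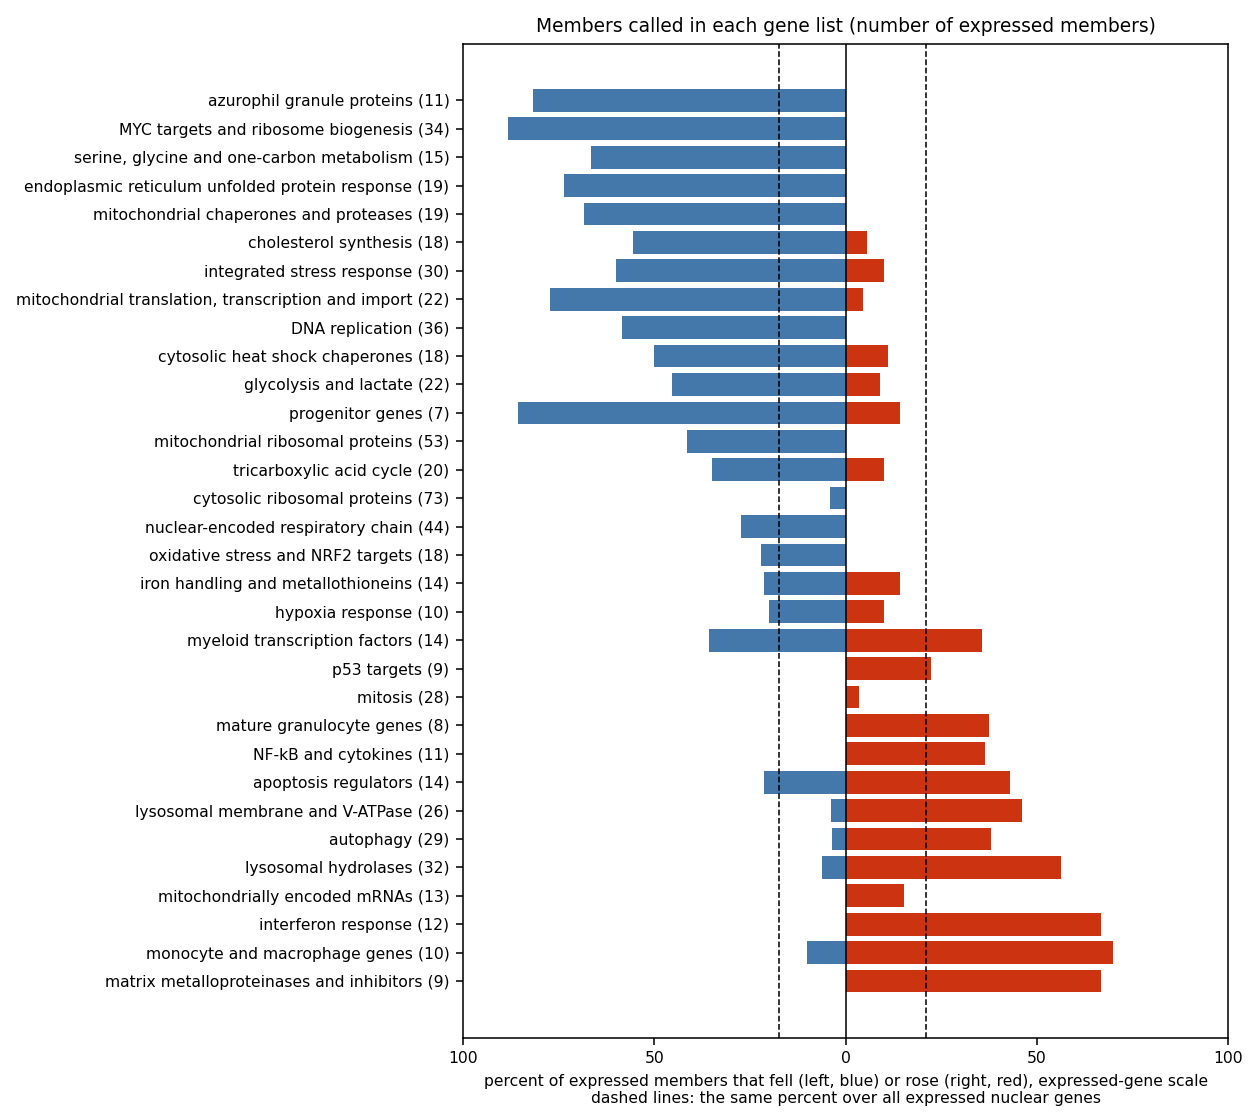
Percent of the expressed members of each list (number in brackets) that fell (left) or rose (right) on the expressed-gene scale; dashed lines mark all expressed nuclear genes, 17.5% lower and 20.9% higher. MYC targets (88.2% fell) and azurophil granule proteins (81.8%) reach far past the left line, while lysosomal and monocyte lists reach past the right line on this scale.

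Most expressed replication genes fell, while mitosis genes depended on the scale. Of 36 expressed DNA replication genes, 21 fell and 0 rose (58.3% against 17.5%). CDT1, which licenses replication origins, read 1407, 1693 and 1358 with vehicle and 1006, 600.8 and 306.8 with doxycycline, without overlap (-1.37 ± 0.28, adjusted p = 0.00421). MCM4, a helicase subunit (-1.05), and POLD2, a subunit of DNA polymerase delta (-1.06), fell too. The 21 became 10 without vehicle 2 (2 on both scales) and 11 without doxycycline 3, and 12 fell under each of 7 scalings. Of 28 expressed mitosis genes 0 fell and 1 rose on the expressed-gene scale, the anaphase activator CDC20 (0.80), and 0 were lower at an unadjusted p under 0.05 by limma on this scale. MKI67, the proliferation marker Ki-67, read 10510, 9989 and 10050 against 14090, 10400 and 11660 (0.23, adjusted p = 0.308). These mitosis counts turned on the scaling: 15 of 33 tested members fell on the deposited scale and 8 of the 28 under TMM, while 5 rose when only genes with a mean of at least 1000 set the scale. Of 14 apoptosis regulators, 6 rose and 3 fell on the expressed-gene scale, the latter including BCL2, an inhibitor of cell death (-1.02). Of all expressed genes 20.9% rose and 17.5% fell. With vehicle 2 left out, the rises were 3. CDKN1A, the cell cycle inhibitor p21, read 34.2, 22.9 and 50.5 against 109.2, 98.4 and 157.7 (1.78, adjusted p = 0.0014), but on the deposited scale its 0.51 did not pass (adjusted p = 0.297).

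**Figure D4:**
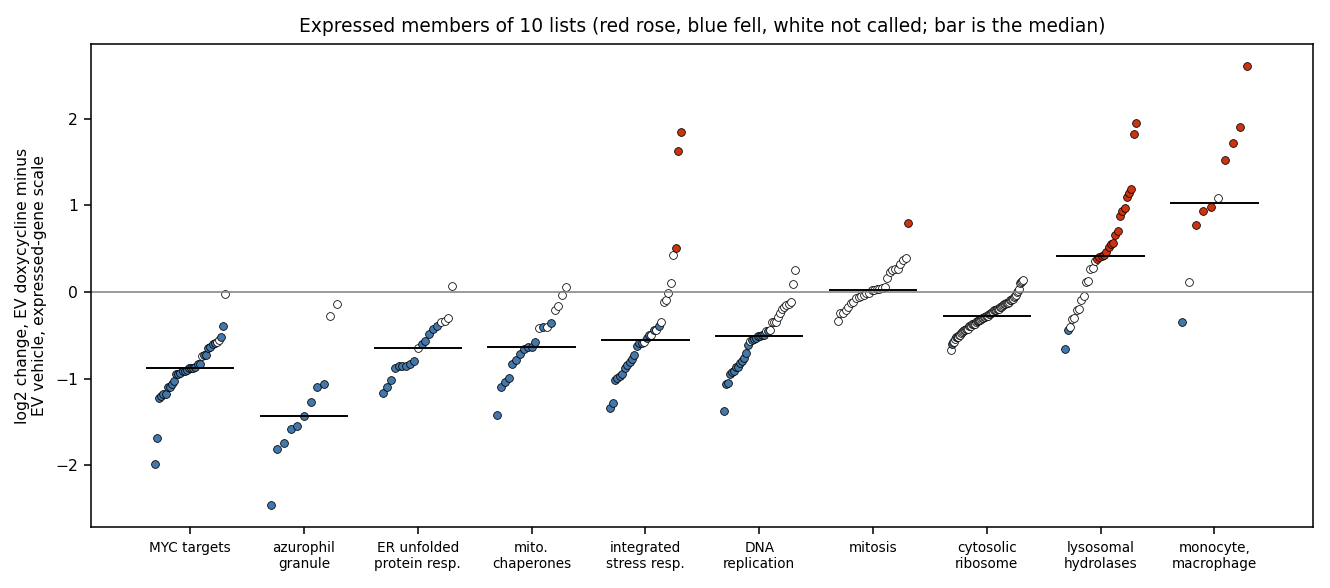
Log2 change of each expressed member (points, ordered within a list) of 10 lists on the expressed-gene scale, coloured by call, with the median as a bar. MYC targets lie about -0.87 and azurophil genes about -1.43, whereas mitosis genes lie about 0.02 and cytosolic ribosomal protein genes about -0.27.

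The largest rises called on both scales were led by LOXL4, a lysyl oxidase that crosslinks collagen. LOXL4 read 27.4, 13.9 and 34.0 with vehicle and 885.7, 1341 and 1540 with doxycycline. The lowest doxycycline library was far above the highest vehicle library, the fitted change was 49.8-fold on the log2(value + 1) scale, or 5.64 ± 0.39 (log2, adjusted p = 6.65e-07), and it was 4.37 on the deposited scale. In the TFEB line the same drug left LOXL4 at 38.4, 64.5 and 68.5 against 83.3, 36.2 and 33.4, which overlapped. C3, the central complement protein, read 132, 52.5 and 70.0 against 742.6, 738.6 and 759.9 (3.23 ± 0.33, adjusted p = 2.98e-05). ANTXR1, a collagen-binding receptor that anthrax toxin uses, read 100.7, 97.8 and 143.8 against 754.8, 907.8 and 934.8 (2.93 ± 0.21, adjusted p = 6.65e-07). The calls of these 3 genes held on both scales whichever library was left out.

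The next rises were smaller, and several lost their call on the deposited scale when a library was left out. MEIS3, a homeobox factor, rose by 2.78 and HSD17B14, a steroid dehydrogenase, by 2.71, and both kept the call in every leave-out. CD52, a leukocyte surface glycopeptide, rose by 2.80, PXN, the focal adhesion adaptor paxillin, by 2.75, EMP1, a membrane protein, by 2.58, and the endocytic receptor LRP1 by 2.53. ITGAX, the integrin CD11c, rose by 2.61. On the expressed-gene scale these 5 were called in every leave-out. The deposited-scale call was lost without vehicle 2 for all 5, without doxycycline 2 for all but EMP1, and without vehicle 3 for CD52, ITGAX and LRP1. For ITGAX and LRP1 it was also lost without vehicle 1, doxycycline 1 or TFEB vehicle 2, and for LRP1 without TFEB doxycycline 3. IER3, an immediate early gene, rose by 2.45 and lost its call on both scales without vehicle 2 or doxycycline 3.

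The largest falls outside the groups above were each called whichever library was left out. PLD6, a phospholipase of the mitochondrial surface, read 182.8, 208.6 and 144.8 with vehicle and 34.8, 34.1 and 31.5 with doxycycline (-2.37 ± 0.22, adjusted p = 1.47e-05). ORM1, the acute-phase plasma protein orosomucoid, read 574.9, 446.9 and 519 against 111.1, 82.7 and 103.2 (-2.37 ± 0.17, adjusted p = 8.5e-07). P2RY2, a receptor for extracellular ATP and UTP (-2.08), and BEX1, a small adaptor protein (-1.81), fell as well. All 4 separated by group on both scales. The less characterised transcripts CTA-384D8.31 and RP11-800A3.4 were at -2.43 and -1.94. No source used here says whether counting used the strand, and without it reads of overlapping genes cannot be told apart from theirs.

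A minority of interferon-stimulated genes rose on both scales, mostly from low levels. Most of the list was called higher on the expressed-gene scale, where 44.1% of all tested genes were. Of 40 list members, 10 rose and 0 fell on both scales (25% against 3.39% of all tested genes and 4.78% of low nuclear genes). Of the 12 expressed members 8 rose on the expressed-gene scale and 1 under each of 7 scalings. IFI6, a mitochondrial antiviral protein, read 49.9, 22.9 and 37.9 with vehicle and 324.7, 390.9 and 312.5 with doxycycline, without overlap (3.24 ± 0.34, adjusted p = 3.44e-05). OAS1, which makes the signal that activates RNase L, read 40.1, 18.4 and 43.7 against 235.3, 232.2 and 226.5 (2.82 ± 0.38, adjusted p = 0.000267). IFIT1, which binds foreign RNA caps, read 12.7, 6.28 and 16.5 against 62.1, 70.8 and 106.1 (2.71 ± 0.50, adjusted p = 0.00231), and OAS3 rose by 2.70. These changes exceeded the 1.48 by which the median low gene was higher on this scale. The 4 genes were named as the largest changes of the list called on both scales, so that excess follows from how they were picked. ISG15, a ubiquitin-like protein, was at 0.84, under that shift, and MX1, an antiviral GTPase, was at 1.75, above it, and neither was called on both scales. Without vehicle 2, 6 of the 40 members rose on both scales and 5 of the 12 expressed members rose on the expressed-gene scale, and OAS3 lost its deposited-scale call. IFIT genes resemble one another, and no source used here says how shared reads were assigned.

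Promoter windows of 3 of these genes are shown because they hold the interferon-stimulated response element (GAAA, any pair of bases, then GAAA again), searched on both strands. They are the 250 bases before the start site, 5′ to 3′ on the gene's strand, from RefSeq on GRCh38.p14, with matches in capitals.
IFI6 (chr1:27672193-27672442, minus strand): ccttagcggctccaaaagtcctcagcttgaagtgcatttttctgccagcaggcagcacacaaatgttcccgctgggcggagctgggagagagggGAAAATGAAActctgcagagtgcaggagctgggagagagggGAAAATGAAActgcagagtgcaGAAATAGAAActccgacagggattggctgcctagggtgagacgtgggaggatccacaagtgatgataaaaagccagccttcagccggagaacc
IFIT1 (chr10:89392373-89392622, plus strand): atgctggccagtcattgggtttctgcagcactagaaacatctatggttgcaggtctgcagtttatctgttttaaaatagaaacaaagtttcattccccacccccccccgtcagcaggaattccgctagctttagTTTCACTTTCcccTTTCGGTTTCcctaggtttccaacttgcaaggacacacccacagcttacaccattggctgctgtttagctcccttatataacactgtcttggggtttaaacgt
OAS3 (chr12:112938224-112938473, plus strand): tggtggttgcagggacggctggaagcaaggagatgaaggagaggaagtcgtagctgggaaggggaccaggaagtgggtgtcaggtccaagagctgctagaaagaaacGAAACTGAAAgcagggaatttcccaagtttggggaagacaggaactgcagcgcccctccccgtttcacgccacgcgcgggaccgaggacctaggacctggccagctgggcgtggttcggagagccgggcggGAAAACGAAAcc
IFI6 holds 3 matches, and IFIT1 and OAS3 hold 2 each, those of IFIT1 on the opposite strand. The letters were in 20 of the 30 list members with a window (66.7%) and in 3.65% of all windows. Of the 9 windowed members that rose on both scales, 6 held them, so members that were not called held them as well.

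Genes of mature phagocytes rose in part. Of 27 tested mature granulocyte genes, 4 rose and 0 fell on both scales (14.8% against 3.39% of all tested genes). All 4 were under the expressed minimum, where 4.78% of nuclear genes rose on both scales. ITGAM, the integrin CD11b, read 45.0, 22.9 and 73.9 with vehicle and 312.5, 481.4 and 476 with doxycycline, without overlap (3.26 ± 0.40, adjusted p = 0.000141), and kept its call in every leave-out. ALOX5, the first enzyme of leukotriene synthesis, rose by 2.51, S100A8, a calcium-binding alarmin, by 2.29 and LTF, lactoferrin, by 2.02. ALOX5 and S100A8 lost the call on both scales without vehicle 2, vehicle 3, doxycycline 1 or doxycycline 2. Counted over the list, 1 gene was called without vehicle 2 or doxycycline 2 and 2 were without doxycycline 1. LTF lost the call on both in 9 of the 12 leave-outs. LTF read 48.9, 82.7 and 223.7 with doxycycline, in libraries with 8.43%, 10.9% and 18.2% of their reads in low genes, and the part of that share in the result was not tested. Of 10 expressed monocyte and macrophage genes, 7 rose on the expressed-gene scale, as did 20.9% of all expressed genes. CD86, a T cell costimulator under the expressed minimum, was called higher on both scales in every leave-out (2.65 on the expressed-gene scale, adjusted p = 0.00146). ITGAX was the other of the 2 monocyte genes, among 27 tested, that were called higher on both, beside 3.39% of all tested genes. ITGAX lost that call without any of vehicle 1, 2 or 3, doxycycline 1 or 2, or TFEB vehicle 2. FCGR1A, an Fc receptor, fell by 0.79 and lost that call without vehicle 2, and IRF8, a monocyte factor, was at -0.34 with a call lost in 10 of 12 leave-outs. Of 9 expressed matrix metalloproteinase and inhibitor genes, 6 rose on the expressed-gene scale, against 20.9% of all expressed genes. MMP14 and MMP15, membrane members of the family, rose by 2.20 each on that scale and were called on both. Without vehicle 2 neither kept the call on both, and 5 family members had it without vehicle 3. Leaving out any other EV library left 1.

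Summed markers of other cell types were also higher. The lymphoid markers (14 genes) summed to values from 256 to 453 over the vehicle libraries and from 580 to 1368 over the doxycycline libraries on the expressed-gene scale. The 16 erythroid and megakaryocyte markers ran from 144 to 215 and from 235 to 482, and 10 of them had a mean under 10. The 13 stromal, epithelial and endothelial markers ran from 192 to 673 and from 774 to 2790. No marker of these 3 lists was at 0 in all 6 libraries. On both scales 0 lymphoid, 1 erythroid or megakaryocyte (ITGA2B, a platelet integrin, 2.05 on the expressed-gene scale and 0.79 on the deposited scale) and 0 stromal markers rose. TRAC, the T cell receptor alpha constant gene, went the other way and was called lower on both scales (-0.90 and -2.14, adjusted p = 0.045 on the expressed-gene scale by limma). That call was lost in each leave-out of vehicle 1, 2 or 3, doxycycline 1 or 2, TFEB vehicle 2 or any TFEB doxycycline library. EPOR, the erythropoietin receptor, was at -0.22 and not called. CD22, a B cell receptor in the lymphoid list, read 39.1, 17.9 and 36.9 with vehicle and 64, 89.2 and 154.8 with doxycycline. VWF, an endothelial clotting factor, was at 1.77 on the expressed-gene scale and 0.50 on the deposited scale, where it did not pass. The part of these markers, and of the low-gene share, in the rises above was not tested.

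Lysosomal and autophagy genes, the targets that TFEB drives when induced, were often higher on the expressed-gene scale but not on the deposited scale. Of 32 expressed lysosomal hydrolases, 18 rose and 2 fell (56.2% against 20.9%), of 26 membrane and V-ATPase genes, 12 rose and 1 fell, and of 29 autophagy genes, 11 rose and 1 fell. Expressed members were set by the mean over all 12 libraries, the induced TFEB line included. Targets low in the EV line can thus pass the minimum and share the shift of low genes (median 1.48 on this scale). TFEB and TFE3 were among the autophagy rises. The part of the filter in these shares was not tested. CD63, a lysosomal tetraspanin, read 545.6, 474.7 and 517 with vehicle and 825.4, 732 and 1052 with doxycycline, without overlap (0.75, adjusted p = 0.00201), against 19300 to 21410 in the induced TFEB line. Its deposited-scale change was -0.54 and uncalled. CTSB, cathepsin B, rose by 1.14 and FUCA1, a fucosidase, by 1.82. On the deposited scale 0 expressed members of these 3 lists rose and their medians were -0.87, -0.95 and -0.94. SGSH, a heparan sulfamidase under the expressed minimum, was called higher on both scales, by 2.42 on the expressed-gene scale and 1.16 on the deposited scale, and lost the call on both without vehicle 1 or 2. Under TMM 2, 1 and 0 expressed members rose, and with equal library totals 10, 6 and 8. With vehicle 2 left out, the rises were 6, 5 and 3, and without doxycycline 3 autophagy had 6. Membrane genes also fell to 7 rises without vehicle 3 or TFEB doxycycline 1, 5 without doxycycline 2, and 6 without TFEB doxycycline 2 or 3.

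The remaining lists held few calls. Hypoxia genes had 2 of 10 lower and 1 higher, iron and metallothionein genes 3 of 14 lower and 2 higher, and oxidative stress genes 4 of 18 lower, against 17.5% and 20.9%. Against the same shares, 2 of 9 expressed p53 targets rose and 0 fell. Of 11 NF-kB and cytokine genes, 4 rose (20.9% of all expressed genes did) and 0 fell, and without vehicle 2 or doxycycline 3, 2 rose. Without those libraries 1 oxidative stress gene fell, and without vehicle 1, 2. The p53 rises were 1 without vehicle 2 or doxycycline 2 or 3. In the hypoxia list 1 gene fell without doxycycline 2. Its single rise was lost without vehicle 1 or 2, doxycycline 2 or 3, TFEB vehicle 2 or 3, or any TFEB doxycycline library.

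The same drug in the TFEB line, where it also induces TFEB S211A, gave a different response in 4449 of the 7290 expressed genes (61%, limma interaction on the expressed-gene scale). Among the 1301 expressed genes called in the EV line on both scales the share was 63.8%. Of the 1274 that fell in the EV line, 494 (38.8%) were more positive and 317 (24.9%) more negative in the TFEB line on the expressed-gene scale, and 494 and 1 on both scales. Interactions were more positive on the deposited scale, as for MYC (1.45 against -0.59) and C3 (-1.29 against -3.32). Requiring both scales therefore keeps positive interactions more readily than negative ones. MYC fell there as well, from 14830 to 25250 to 2462 to 3877, and its interaction was not called on both scales. SRM read 1140, 1254 and 993.2 in the induced TFEB line, which overlapped the EV doxycycline libraries. MPO and PRTN3 were lower in the induced TFEB line than with doxycycline alone, and their interactions were called on the expressed-gene scale but not on both. DDIT3, TRIB3, LONP1 and HSPA9, which fell in the EV line, read above their vehicle values in the TFEB line. LOXL4, ITGAM and CD86 rose in the EV line and had interactions called negative on both scales. C3 and ANTXR1 had negative interactions of -3.32 and -2.69 on the expressed-gene scale alone.

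**Figure D5:**
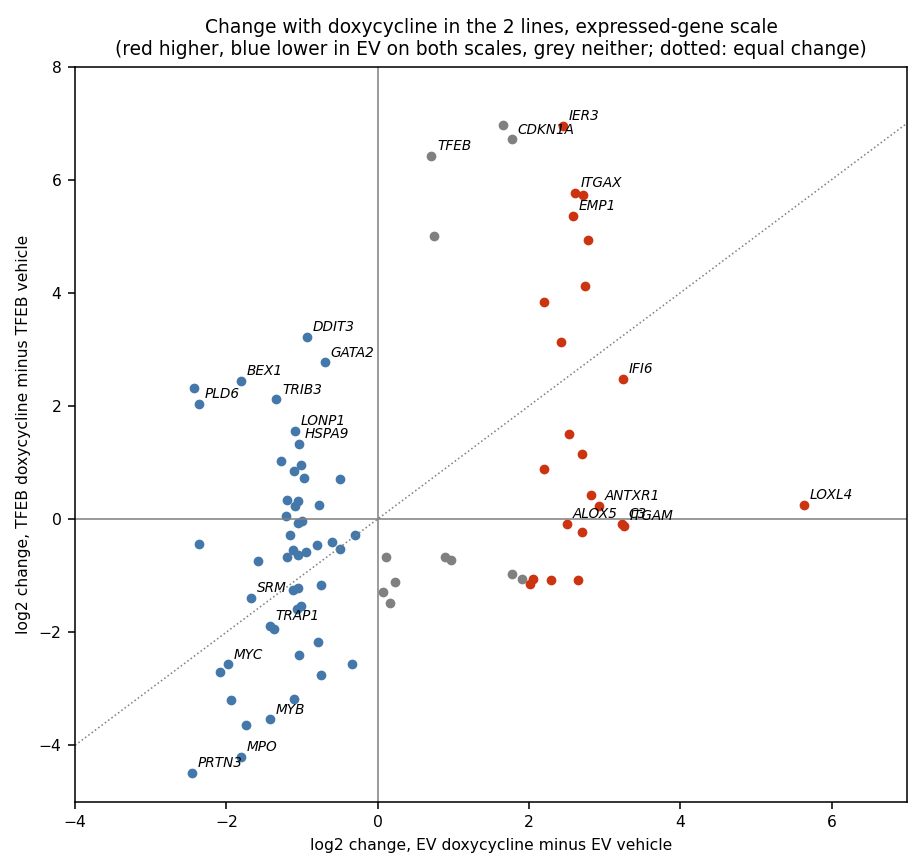
Log2 change with doxycycline in the EV line (x axis) and in the TFEB line (y axis), expressed-gene scale, for genes described in the text; the dotted line marks equal change. MYC, SRM and TRAP1 lie near the dotted line, LOXL4, C3 and ITGAM lie to the right near 0 on the y axis, and DDIT3, TRIB3 and LONP1 lie in the upper left.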

How the data were processed

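RNA-seq values of 57820 genes in 12 HL60 libraries were used. Per the submitters' processing notes, the authors used STAR 2.5.3a and HTSeq 0.6.1. No source used here gives the genome build, annotation or strand setting. The deposited values are a signal: read counts divided by a factor for each library. Dividing by the step between low values gave whole reads for 100% of values in each library, at a tolerance of 0.01. log2(value + 1) was tested with limma 3.58.1 (R 4.3.3; two-sided, variance trend; 4 groups fitted together, EV contrast) on the 23128 genes with a mean of at least 10, with Benjamini-Hochberg adjustment at 0.05, on the deposited scale and on a scale set by 7290 nuclear genes whose mean reached 200. Fold changes are on that log2 scale and understate changes of low genes. edgeR 4.0.16 (quasi-likelihood) and DESeq2 1.42.0 on recovered reads were alternatives, beside other scalings, filters and pseudocounts, and leaving out each library. The count of genes called under each of 7 scalings was added after seeing the data. It rests mainly on the scaling set at a mean of 1000 for falls and on the deposited scale for rises.

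The members and the 35 gene lists (991 entries, 966 tested) were chosen with earlier results of these data known. Named genes were the 12 largest rises and falls among expressed genes called on both scales whose groups did not overlap, up to 4 members per list, and a set of preset genes; others were chosen after their values were seen. Same-numbered EV vehicle and doxycycline libraries had correlated deviations (r = 0.22, 0.41 and 0.72), but the labels do not pair them. For number 2 the correlation with another number was higher, at 0.61, so a pairing by number is not settled. Replicates differed by more than sampling noise (chi-square per degree of freedom 10.4 to 35.3). On data simulated for this contrast (23056 genes), limma recovered 43 of 50 rises and 43 of 50 falls of 2-fold and 50 of 50 of each at 4-fold, and called 1 of 7262 unchanged expressed genes. The simulated libraries shared the same mean profile apart from the set changes, and genes were drawn independently. Real libraries differed in their low-gene share, so the simulation does not give the rate of false calls in the real data. Promoter windows came from RefSeq (GRCh38.p14; 27305 symbols). One gene that the naming rule selects is not reported here.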

Additional observations from a re-analysis of the deposited data

Results flagged for a closer look

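Of the genes named in the report, 40 responded to doxycycline differently in the EV and TFEB lines by limma's interaction test on both scales. Each value is the log2 change in the TFEB line minus that in the EV line, on the expressed-gene scale. These values were more positive on the deposited scale, so requiring both scales keeps positive ones more readily than negative ones. The change was more negative in the TFEB line for LOXL4 (-5.39), ITGAM (-3.38), S100A8 (-3.37), LTF (-3.17), CD86 (-3.73) and ITGA2B (-3.11). It was more positive for CD52 (5.63), MEIS3 (2.15), PXN (1.37), HSD17B14 (3.02), ITGAX (3.17), EMP1 (2.77), IER3 (4.50), CTA-384D8.31 (4.75), PLD6 (4.41), ORM1 (1.93), BEX1 (4.25), CYCS (1.02), TOMM40 (1.96), LONP1 (2.65), HSPA9 (2.37), HSPD1 (0.96), TRIB3 (3.45), SLC7A5 (2.30), PSAT1 (1.39), MTHFD2 (1.70), CALR (0.88), HSPA5 (1.97), HSP90AB1 (1.53), TFRC (1.33), CDKN1A (4.94), POLD2 (0.99), NOLC1 (1.28), GATA2 (3.47), CD63 (4.25), TFEB (5.71), MMP15 (1.64), CD22 (5.31), ATF4 (1.20) and DDIT3 (4.16). The TFEB line also makes the induced protein, so drug and transgene cannot be told apart in it.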

How the results depend on the processing

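Among genes picked by the naming rule, no called change turned in sign under an alternative within its own scale. Signs of other genes were not followed. Some signs differ between the scales (TFEB 0.71 and -0.57, CD63 0.75 and -0.54, called on the expressed-gene scale only). Counts below are of tested genes rising and falling on the deposited scale, of expressed genes rising and falling on the expressed-gene scale, and of tested genes on both. With no low-value filter the deposited counts were 346 and 3532, and both-scale counts 346 and 822. A filter at a mean of 50 gave 243 deposited rises and 237 on both. TMM gave 4369 rises, equal library totals 8224 rises and 1883 falls, and upper quartiles 7258 and 2323, with the same rises on both scales. Setting the expressed-gene scale at a mean of 1000 gave 2336 and 677 (699 falls on both), and equal totals of expressed genes gave 801 falls (830 on both). Without a variance trend there were 459 deposited rises, 815 expressed-gene falls, and 459 and 885 on both. The 6 EV libraries alone gave 300 and 1770, 802 and 727, and 146 and 431. A minimum fold of 2 gave 415 deposited rises, 408 and 124, 415 and 140 on both, and 2758 interactions. Leaving out each library gave 77 to 1635 and 377 to 8149 (deposited), 619 to 1625 and 509 to 1428 (expressed-gene), 73 to 1635 and 150 to 1492 (both), and 4055 to 4560 interactions. The replicate block treats same-numbered libraries as paired, which these data do not settle. With it the counts were 1172 and 6755, 1822 and 1664, 1172 and 1731, and 4914 interactions, and 21 respiratory chain and 14 cytosolic ribosomal protein genes fell. The cause of these differences was not tested. The shallowest library held 4474007 reads, which limits low genes most.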
